A study of Mus musculus with 8 samples.

Results

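Transcripts of 54 genes for heat shock proteins and other chaperones were compared between the deprived and non-deprived visual cortex of mice with 1 eye removed. The genes were taken by name from the array's annotation, as the Hspa, Hspb, Hspd, Hspe, Hsph and Hsp90 genes with a number, all Dnaj genes and the numbered Cct genes. They were 54 of 8251 genes with a probe set of 1 symbol, and the probe set with the highest mean signal stood for each gene. Both groups were visual cortex of wild-type C57Bl6 mice at postnatal day 24, taken 4 days after 1 eye was removed at postnatal day 20. The deprived hemisphere lay contralateral to the removed eye and the non-deprived hemisphere ipsilateral to it. There were 4 arrays of each, numbered 1 to 4 in both groups. The labels name 4 operated mice, while the design text speaks of pooled samples, so the p-values cover the spread among these samples alone, and that spread may be technical. Unoperated mice were not analysed here.

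Chaperones bind unfolded or partly folded proteins and help them to fold, to cross membranes or to be degraded. Hsp70 proteins do so in cycles of ATP hydrolysis that DnaJ proteins start, Hsp90 acts on late folding steps of kinases and receptors, and the chaperonins, Hsp60 with Hsp10 in mitochondria and TRiC in the cytosol, enclose their substrates. Some chaperones are made at all times. Others are induced when unfolded proteins accumulate, in the cytosol through heat shock factor 1, which binds heat shock elements in promoters, and in the endoplasmic reticulum (ER) through the unfolded protein response, which acts in part on ER stress elements. Neurons rely on chaperones for axonal and synaptic proteins, and the DnaJ protein of synaptic vesicles, Dnajc5, protects nerve terminals.

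The 54 genes fell into 6 heat-inducible cytosolic genes, 6 constitutive cytosolic Hsp70 and Hsp110 genes, 7 genes of the ER, 7 of mitochondria, 3 other small heat shock proteins, 8 TRiC subunits and 17 other DnaJ genes. Hsp90ab1, the constitutive Hsp90, and Dnajc6, the neuronal auxilin that brings Hspa8 to clathrin coats, were not analysed here.

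The promoters below are shown because they hold elements through which induced chaperones are known to be switched on. They are the 250 bases before the annotated start, from RefSeq on GRCm38.p6, written 5′ to 3′ on the strand of the gene. For Hspa1a (chr17:34972157-34972406, minus strand) capitals mark a heat shock element of 2 units. For Hspe1 (chr1:55087898-55088147, plus strand) they mark 2 overlapping elements of 3 units, and for Hspa5 (chr2:34771840-34772089, plus strand) an ER stress element.
Hspa1a: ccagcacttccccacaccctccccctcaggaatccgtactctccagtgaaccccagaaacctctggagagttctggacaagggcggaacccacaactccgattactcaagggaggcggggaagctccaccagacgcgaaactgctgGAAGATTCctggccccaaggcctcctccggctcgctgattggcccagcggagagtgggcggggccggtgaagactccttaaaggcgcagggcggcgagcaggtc
Hspe1: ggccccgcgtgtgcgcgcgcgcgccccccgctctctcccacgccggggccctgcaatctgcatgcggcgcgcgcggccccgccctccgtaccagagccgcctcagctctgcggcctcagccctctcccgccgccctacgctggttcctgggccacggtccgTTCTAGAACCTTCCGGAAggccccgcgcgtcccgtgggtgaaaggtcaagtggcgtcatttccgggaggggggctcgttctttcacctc
Hspa5: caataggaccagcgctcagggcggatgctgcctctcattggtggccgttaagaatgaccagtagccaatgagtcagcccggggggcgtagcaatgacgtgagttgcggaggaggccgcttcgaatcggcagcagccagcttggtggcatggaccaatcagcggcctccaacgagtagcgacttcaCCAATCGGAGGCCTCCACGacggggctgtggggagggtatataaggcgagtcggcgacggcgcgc

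The heat shock element was searched as TTCNNGAA or GAANNTTC for 2 units and as TTCNNGAANNTTC or GAANNTTCNNGAA for 3, so that each match of 3 also holds matches of 2. These patterns read the same or as each other on both strands. Only exact units were matched, so an element with an altered unit was neither marked nor counted. A promoter was found for 46 of the 54 genes. The element of 3 units was found for Hspd1, Hspe1 and Dnajb6, 3 of the 46, against 0.514% of all genes with a promoter. The element of 2 units was found for 12 of the 46, against 14.5% of all genes. These were the heat-inducible Hspa1a, Hspa1b, Hspb1 and Hsph1, and also Cct2, Cct5, Dnaja1, Dnajb4, Dnajb6, Dnajc10, Hspd1 and Hspe1. It was not found for the heat-inducible Dnajb1, and Hsp90aa1 had no entry. The ER stress element, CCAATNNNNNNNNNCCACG on either strand, was found for Hspa5, Hsp90b1 and Dnajc3, against 0.13% of all genes. The promoters of Hspa1a and Hspa1b were identical at 247 of 250 bases. Hspd1 and Hspe1 are divergent neighbours: an annotated start of Hspd1 lies 216 bases from that of Hspe1 on the other strand, and 215 bases of the Hspe1 sequence above are also upstream of it. Another annotated start of Hspd1 shares 0 bases with that sequence, and its own 250 bases hold no element of 3 units. The elements marked for Hspe1 lie in the shared bases, so the counts above take them once for each gene. They also count the near-identical promoters of Hspa1a and Hspa1b separately.

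The median signal per array was 183 to 196 in non-deprived and 191 to 209 in deprived arrays, in the units of the deposited table. It was higher in the deprived array of every same-numbered pair. Every pair of arrays had a correlation of at least 0.948 on the log2 scale. The 10th percentile of signal was 17.2 ± 2.68 (SD, n = 4) in deprived and 13.5 ± 0.720 in non-deprived arrays. The ratio of 3′ to 5′ signal, which rises as RNA degrades, was for the actin controls 1.25 to 1.63 in non-deprived and 1.33 to 1.91 in deprived arrays. That of the Gapdh control was 0.856 to 0.977 and 0.801 to 0.882. Of 10 listed neuron markers on the array, 10 passed the filter on dim probe sets, with a summed signal of 36640 to 45090 in non-deprived and 36350 to 42030 in deprived arrays. Choroid plexus markers (3 of 3) lay below that filter. Summed signals overlapped between the groups for oligodendrocyte (17640 to 24440 and 19270 to 22190), astrocyte (15650 to 24370 and 15940 to 24170) and microglial markers (5086 to 6112 and 4930 to 6007), and also for endothelial and mural, blood, thalamus and hippocampus markers. In whole tissue, fewer cells of a type and less RNA per cell cannot be told apart.

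No chaperone gene differed between the hemispheres past the threshold. Of the 54 genes, 49 passed the filter, at a mean signal of about 110. Of these 49, limma called 0 lower and 0 higher at an adjusted p under 0.05, the lowest adjusted p being 0.996. The background was 0.0% of 7453 probe sets in each direction. At an unadjusted p under 0.05 there was 1 member, Hspa2, which is 2.04% of the members, and 2.67% of all probe sets. Differences are given as deprived minus non-deprived on the scale of log2(signal + 15.3), and a fold is 2 to that power. They lay below 0 for 26 members and above 0 for 23, with a median of -0.01, against 45.1% below 0, 54.9% above 0 and a median of 0.02 over all probe sets. The 95% interval of the difference lay within a change of 2-fold either way for 45 of the 49 members and within 1.5-fold for 26. In no member did the 4 deprived arrays lie apart from the 4 non-deprived ones, while 2.05% of all probe sets showed this, 0.805% with the deprived arrays lower and 1.25% with them higher. The plot of differences by class shows the members centred near 0, with the mitochondrial genes lowest.

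**Figure D1:**
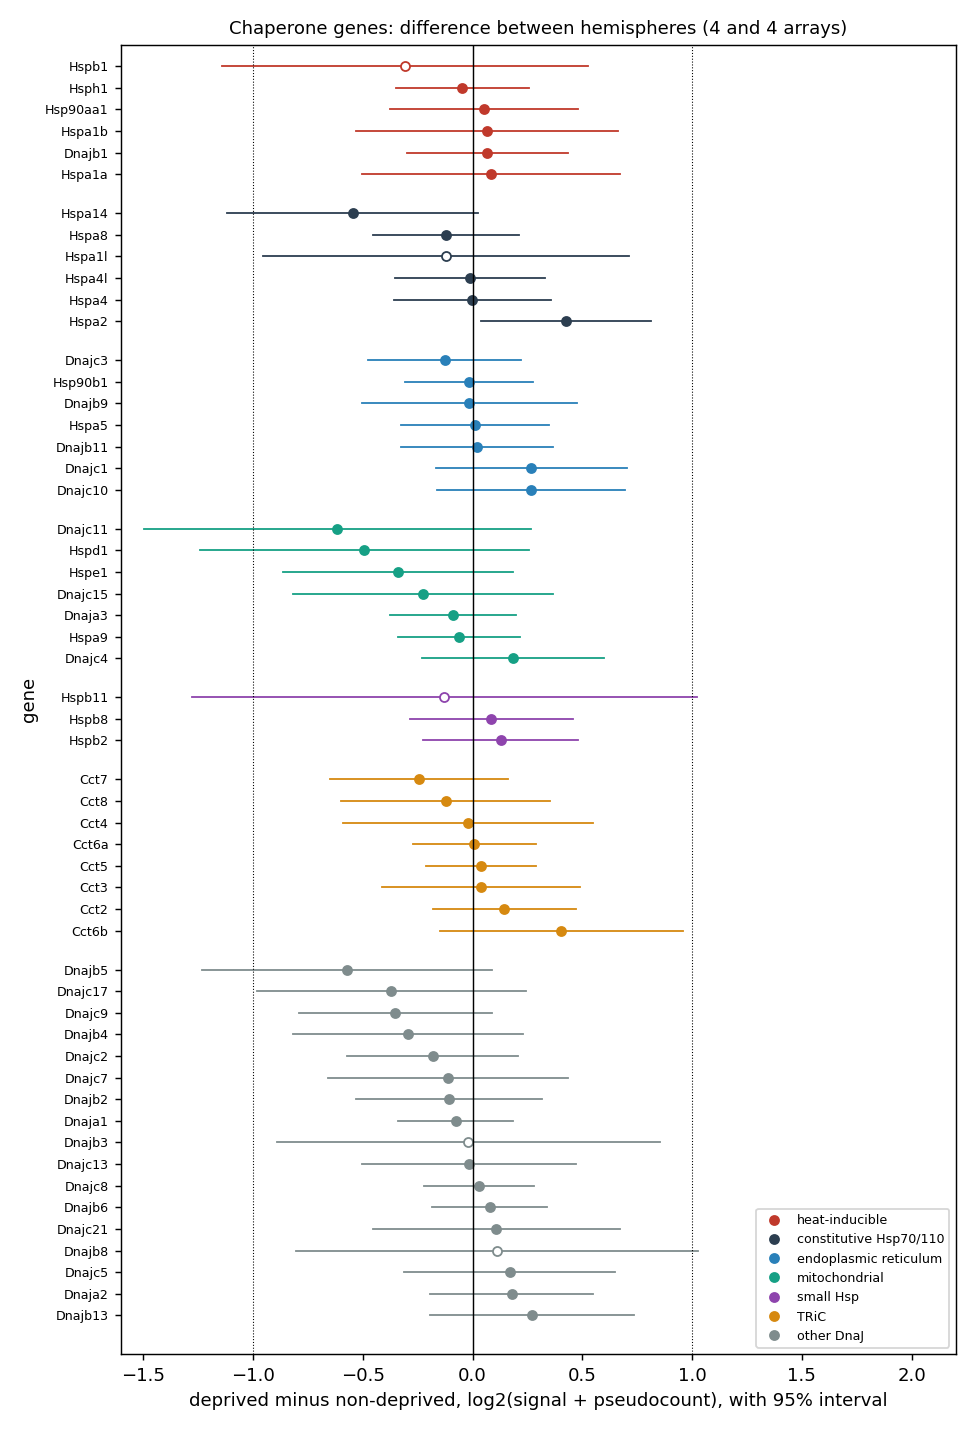
Difference between deprived and non-deprived cortex for the 54 chaperone genes by class, on the log2(signal + pseudocount) scale (x axis), with 95% intervals from 4 and 4 arrays. Open points mark the 5 genes below the filter and dotted lines a 2-fold change. Every interval except that of Hspa2 spans 0, and the lowest point is Dnajc11.

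With the replicate number as a block, limma also called 0 members, the lowest adjusted p being 0.703. The unadjusted p lay under 0.05 for 4, Hspa2, Hspa14, Dnajb5 and Hspe1, or 8.16% of the members against 7.03% of all probe sets. The deprived array differed from its same-numbered partner in 1 direction in all 4 pairs for 5 members (10.2%, against 15.9% of all probe sets). These were Hspa14, Dnajc2 and Hspe1, lower in 4 of 4 pairs, and Dnaja2 and Cct6b, higher in 4 of 4.

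Of the 5 heat-inducible chaperones of the cytosol that passed the filter, limma called 0, and the interval lay within 1.5-fold either way for 3. Hspa1a, an Hsp70 that is scarce until stress induces it, had signals of 273, 173, 409 and 338 in non-deprived arrays 1 to 4 and 427, 228, 339.6 and 253.5 in deprived arrays 1 to 4. The groups overlapped over most of their range. The log2 difference was 0.08 ± 0.27 (SE), a fold of 1.06 with a 95% interval of 0.705 to 1.59. Hspa1b, its near-identical neighbour on chromosome 17, had 209, 154, 215 and 173 in non-deprived and 227, 291.5, 204.5 and 106 in deprived arrays, so that the deprived group held both the highest and the lowest value. Probe sets of such a close pair may each detect both transcripts, and the values of these genes are uncertain to that extent. The log2 difference of Hspa1b was 0.07 ± 0.27, with a fold interval of 0.692 to 1.585.

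Dnajb1, the inducible DnaJ partner of Hsp70, had signals of 906, 891, 705 and 1108 in non-deprived and 1084, 832, 815.5 and 1038 in deprived arrays. All deprived values lay within the range of the non-deprived ones, and the fold was 1.05 (95% interval 0.814 to 1.35). Hsph1, an Hsp110 that exchanges nucleotide on Hsp70, had 4117, 5209.9, 4714.5 and 3833 against 5012.5, 3959, 4037.5 and 4242, again within that range, and the fold was 0.968 (0.785 to 1.19). Hsp90aa1, the inducible cytosolic Hsp90, had 9741, 13502, 9455 and 7309.9 against 13688, 8625, 9639 and 9262.5. The fold was 1.04 (0.771 to 1.397), and 1 array of each group, number 2 of the non-deprived and number 1 of the deprived, stood well above the others. Hspb1, a small heat shock protein that binds unfolding proteins and actin, lay below the filter, with mean signals of 49.0 ± 22.3 and 38.4 ± 23.9 (SD, n = 4).

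Of the 5 heat-inducible genes measured, 4 lay above 0 and 1 below, with a median of 0.07 and a range of -0.05 to 0.08. The median turned to -0.07 without deprived replicate 1 and to -0.09 without both arrays numbered 1, and reached 0.12 without deprived replicate 2. Deprived array 1 had the highest mean of the class (10.57 on the log2 scale) and deprived array 4 the lowest (10.05), while the non-deprived arrays ran from 10.17 to 10.30. The SD of that class mean was 0.219 in deprived and 0.0572 in non-deprived arrays.

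The constitutive cytosolic class held the highest difference of all 49 members, that of Hspa2, and 1 of the lowest, that of Hspa14. Hspa8, the Hsc70 that serves folding and clathrin uncoating at synapses, had signals of 6747, 7509, 5607 and 6813.5 in non-deprived and 7582, 5487, 5097.5 and 6525 in deprived arrays. Its log2 difference was -0.12 ± 0.15 (SE), with a fold of 0.920 and an interval of 0.730 to 1.16. Hspa4, a constitutive Hsp110, had 2289, 3265, 3260.2 and 2876 against 2303, 3379, 2766 and 3253, and its fold interval was 0.780 to 1.28. The deprived array was the lower of its pair in 3 of 4 pairs for Hspa8 and in 1 of 4 for Hspa4. Hspa4l, another Hsp110, had a fold of 0.993 (0.784 to 1.26).

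Hspa2, an Hsp70 best known from the testis, had signals of 327, 322, 259 and 332.5 in non-deprived and 469.9, 403, 504.5 and 324 in deprived arrays. Deprived arrays 1 to 3 lay above every non-deprived array and deprived array 4 within them. The log2 difference was 0.43 ± 0.18 (SE), a fold of 1.34 with an interval of 1.03 to 1.76, and it did not pass (limma adjusted p = 0.996). Exact two-sided permutation tests of the 49 single members gave no p below the 0.0857 of Hspa2 and Hspa14, where 70 assignments allow no less than 0.0286.

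Hspa14, the Hsp70 of the ribosome-associated complex, had 282, 131, 219.6 and 199.6 in non-deprived and 169, 129, 151 and 93.5 in deprived arrays. It was lower in the deprived array of each pair, by little in pair 2. The log2 difference was -0.55 ± 0.26 (SE), with limma adjusted p = 0.996, or 0.703 with the replicate block. Dnajc2, the DnaJ protein that partners Hspa14 on ribosomes, had 689, 651, 648.5 and 589.6 against 687, 649, 394 and 582. It was also lower in 4 of 4 pairs, by a small margin except in pair 3, and its difference was -0.18 ± 0.18. A dimmer probe set of Dnajc2 had a difference of -0.06.

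The inducible and constitutive classes could be set against each other by their medians. The heat-inducible median was 0.07 and that of 5 constitutive genes was -0.01, which left a gap of 0.08. With arrays left out the gap ran from -0.09, without both arrays numbered 1, to 0.19, without deprived replicate 2. With Hspa8, Hspa4l, Hspd1, Hspe1, Hspb8, Dnaja1 and Dnajb4 counted as inducible too, it was -0.03. The log2 ratio of Hspa1a to Hspa8 differed between the groups by 0.205, with pairs from -0.33 to 0.82 and SDs of 0.664 among non-deprived and 0.351 among deprived arrays (n = 4). That of Hsph1 to Hspa4 differed by -0.05, with pairs from -0.44 to 0.27 and SDs of 0.185 and 0.388. Both differences were smaller than the SD within the groups.

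**Figure D2:**
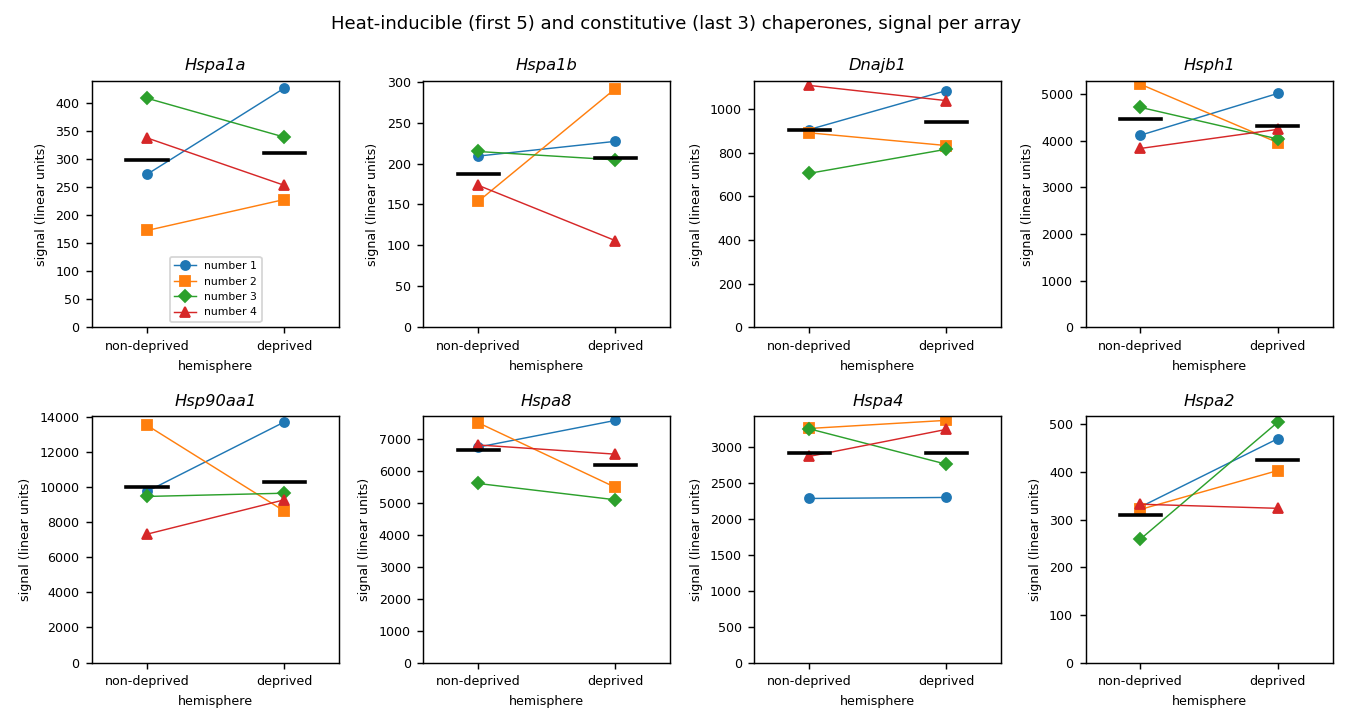
Signal per array (y axis, linear units) of heat-inducible Hspa1a, Hspa1b, Dnajb1, Hsph1 and Hsp90aa1 and of constitutive Hspa8, Hspa4 and Hspa2 in non-deprived and deprived cortex. Lines join arrays of the same number and bars are means of 4 arrays; the groups overlap in each panel, least in that of Hspa2.

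Of the 7 ER chaperones limma called 0, and the interval lay within 1.5-fold either way for 5. Hspa5, the ER Hsp70 also called BiP, had signals of 2588, 3499, 2301 and 3208.5 in non-deprived and 2879.5, 2595, 2793.5 and 3308 in deprived arrays. Its fold was 1.01 with an interval of 0.798 to 1.27. Hsp90b1, the ER Hsp90, had means of 2762 ± 247 and 2739 ± 318 (SD, n = 4), with a fold of 0.989 (0.809 to 1.21). Deprived array 2 was the lowest of the 8 for Hsp90b1 (2283), and for Hspa5 the lowest was non-deprived array 3. Dnajb11, a BiP partner, had a fold of 1.01 (0.797 to 1.29), and Dnajc3, which restrains the kinase PERK, 0.916 (0.720 to 1.16). Dnajb9, another BiP partner, had a log2 difference of -0.01 with a fold interval of 0.705 to 1.39.

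These 5 genes are induced in the unfolded protein response, and their median difference was -0.01. Hspa5, Hsp90b1 and Dnajc3 carry the ER stress element shown above. The interval of each of the 5 lay within 1.5-fold either way by the probe set used. A dimmer probe set of Dnajb9 was at -0.32, and its fold interval of 0.533 to 1.20 reached beyond that bound. The other ER genes had higher values: Dnajc10, a disulfide reductase, was at 0.27 ± 0.20 (SE) and Dnajc1, a DnaJ protein of the ER membrane, at 0.27 ± 0.20, each higher in 3 of 4 pairs. Over the 7 ER genes, 4 lay above 0 and 3 below, with a median of 0.01. ER folding and stress genes outside the chaperone families had 7 below 0 and 7 above among 14 measured of 21 listed, with a median of 0.02 and 0 called by limma in either direction. Among these 14, by the probe set used, the nearest to the threshold were Atf4, P4hb and Manf. Atf4, a stress-induced transcription factor, had 2282 ± 259 and 1963 ± 277 (SD, n = 4, lower in 4 of 4 pairs). P4hb, a disulfide isomerase, was at -0.29 ± 0.26 and Manf, a secreted stress protein, at -0.18 ± 0.23. Listed genes below the filter got no call: Calr was at 0.36 ± 0.315 (SE), Hyou1 at 0.08 ± 0.16 and Trib3 at 0.74 ± 0.33.

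Mitochondrial chaperones had the lowest median of the classes, and the low values lay in arrays 2 and 3 of deprived cortex. Hspd1, the Hsp60 chaperonin of the matrix, had signals of 3969, 4771, 2448 and 3222 in non-deprived and 3852, 1617, 1424 and 4251.5 in deprived arrays. Deprived arrays 2 and 3 lay below every non-deprived array, and deprived arrays 1 and 4 within them. The log2 difference was -0.49 ± 0.34 (SE), a fold of 0.711 with an interval of 0.423 to 1.19. With arrays left out it ran from -0.79, without both arrays numbered 4, to -0.14, without both numbered 2, and it was -0.23 without deprived replicate 3. Hspe1, the Hsp10 lid of the Hsp60 chamber, had 1073, 695, 1048 and 1078 against 955, 489, 652 and 1055. It was lower in 4 of 4 pairs, and arrays 2 and 3 were again the lowest of the deprived group, with a log2 difference of -0.34 ± 0.24. That ran from -0.50, without deprived replicate 4, to -0.14, without deprived replicate 2. These genes are the divergent pair whose upstream sequence, shared for 1 of the annotated starts of Hspd1, is given above.

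Dnajc11, which is tied to the protein complexes that shape the inner membrane, had 242, 250.4, 400.0 and 236 in non-deprived and 363, 75.7, 109.6 and 286 in deprived arrays, a log2 difference of -0.62 ± 0.41. Its deprived arrays 2 and 3 lay below every non-deprived array and at or under the filter signal of about 110. The difference of Dnajc11 was -0.26 without deprived replicate 2, and ran from -1.005, without both arrays numbered 1, to -0.24, without both numbered 3. Dnajc15, a DnaJ protein of the import machinery, had 232, 193, 253 and 319 against 265, 118, 195 and 299.5, with a log2 difference of -0.22 ± 0.27. The matrix Hsp70, Hspa9, did not share this shape. It had 1605, 1958, 1711 and 1554 against 1575, 1658, 1776 and 1515 in the deprived arrays, with a fold of 0.958 (0.790 to 1.16), and its DnaJ partner Dnaja3 a fold of 0.941 (0.771 to 1.15). Dnajc4, a less studied DnaJ protein, was at 0.18 ± 0.19.

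Of the 7 mitochondrial genes, 6 lay below 0 and 1 above, with a median of -0.22, and limma called 0. The class mean was 9.63, 9.55, 9.66 and 9.63 in the non-deprived and 9.71, 8.93, 9.18 and 9.72 in the deprived arrays. Arrays 2 and 3 of deprived cortex thus stood below all others and arrays 1 and 4 above, so that the pairs split 2 and 2. With arrays left out the median ran from -0.39, without deprived replicate 4, to -0.09, without both arrays numbered 2. Deprived arrays 2 and 3 were also the lowest of their group for the TRiC mean (9.91, 9.55, 9.61 and 9.67), but within the non-deprived range. For some single genes outside mitochondria, deprived arrays 2 and 3 lay below every non-deprived array. Among these were Pfdn2 (1695, 764, 811 and 1359, lowest non-deprived 854) and Bag1 (863, 520, 604 and 824, lowest non-deprived 723). For others, such as Dnajb6 (4118.5, 5076, 5158 and 4362), deprived arrays 2 and 3 were the highest. These examples were picked after their values were seen.

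**Figure D3:**
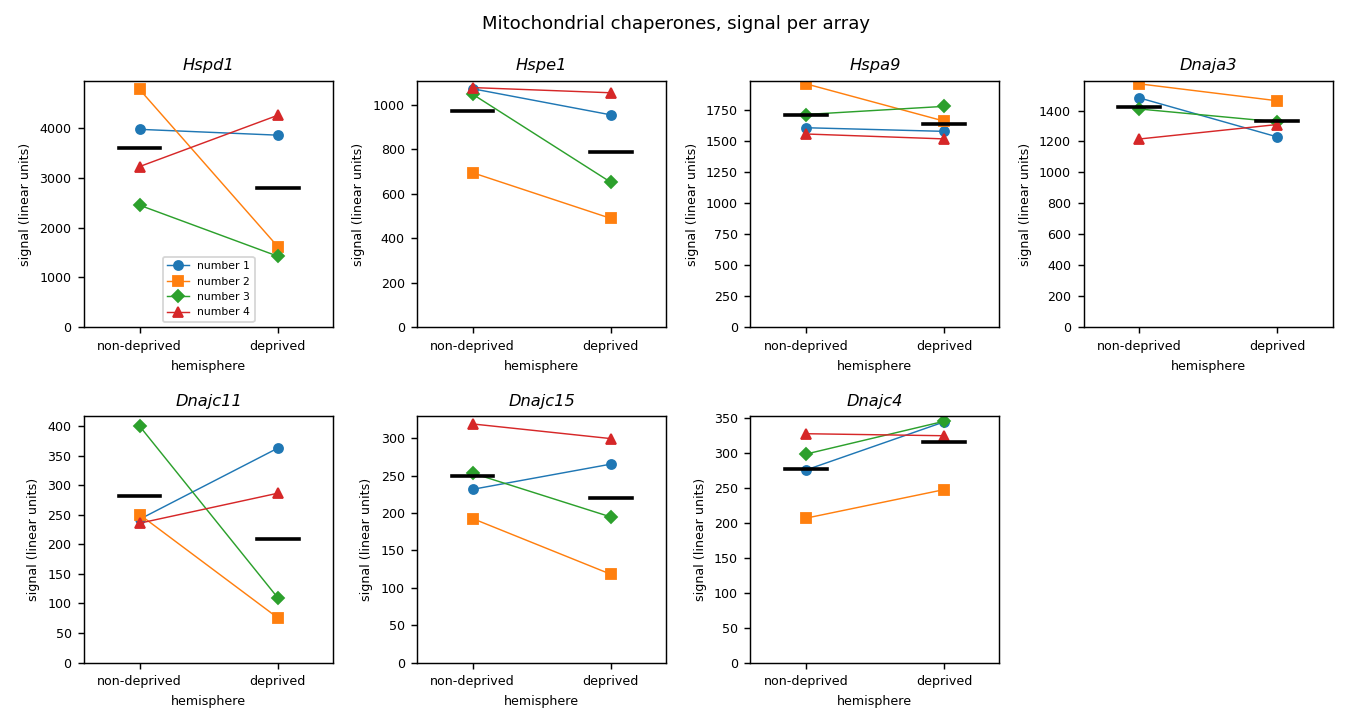
Signal per array (y axis, linear units) of the 7 mitochondrial chaperone genes in non-deprived and deprived cortex, with lines between arrays of the same number and bars at the means of 4 arrays. Deprived arrays 2 and 3 are the lowest of their group for Hspd1, Hspe1, Dnajc11 and Dnajc15, and not for Hspa9, Dnaja3 or Dnajc4.

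The same deprived arrays 2 and 3 had the highest actin 3′ to 5′ ratios of all 8, 1.91 and 1.71, and the lowest Gapdh ratios, 0.801 and 0.831. Once the actin ratio was added to the fit, the class median was -0.04, and the differences were -0.23 for Hspd1, -0.03 for Hspe1 and -0.04 for Dnajc11. With the Gapdh ratio instead, the class median was -0.07, and the differences were 0.10 for Hspd1, -0.30 for Hspe1 and -0.29 for Dnajc11. The actin and Gapdh ratios thus ran opposite ways in deprived arrays 2 and 3. Both ratios were at their extreme in the arrays with the low values, so these fits cannot separate a ratio from those arrays. Whether RNA quality lies behind the low values was not tested. A dim second probe set of Hspd1 went the other way, with signals of 172, 241, 74.5 and 263 against 148, 266, 202 and 172 and a log2 difference of 0.16.

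Of the 8 TRiC subunits, which fold actin and tubulin, limma called 0, and the interval lay within 1.5-fold either way for 4. Cct5 had 2548, 2455, 2290.4 and 2577 in non-deprived and 2460.0, 2382, 2671 and 2614 in deprived arrays, which overlapped. Its fold was 1.03 with an interval of 0.862 to 1.22, and that of Cct6a was 1.01 (0.830 to 1.22). Cct7 was lowest, with 2361, 1876, 1861 and 2189 against 2576.5, 1415, 1506 and 1664. It was lower in 3 of 4 pairs, at -0.24 ± 0.19 (SE), and deprived array 1 was the highest of the 8. Cct8 was at -0.12 ± 0.22 and Cct4 at -0.02 ± 0.26, Cct3 at 0.04 ± 0.21 and Cct2 at 0.15 ± 0.15.

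Cct6b, a subunit best known from the testis, had the highest difference of the class, at 0.40 ± 0.25. Its signals were 76.6, 110.5, 118 and 93.1 in non-deprived and 136, 124, 193.5 and 101 in deprived arrays, so the non-deprived ones lay near the filter. It was higher in 4 of 4 pairs. Over the 8 subunits 5 lay above 0 and 3 below, with a median of 0.02. Tcp1, the TRiC subunit whose name the rule does not take, was at -0.37 ± 0.30 and was picked after its value was seen. Prefoldin, which hands substrates to TRiC, had 4 measured subunits of 6 listed, 3 below 0 and 1 above, with a median of -0.17 and 0 called. Pfdn2 was at -0.27 ± 0.27, Pfdn6 at -0.24 ± 0.27 and Pfdn5 at 0.23 ± 0.20.

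**Figure D4:**
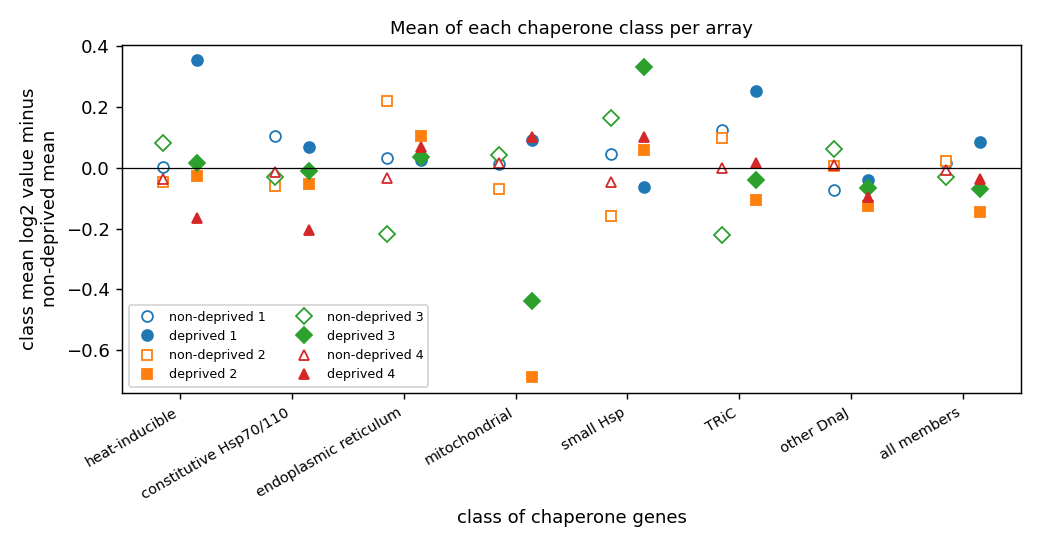
Mean log2 value of each chaperone class per array, minus the non-deprived mean of that class (y axis), with open symbols for non-deprived and filled symbols for deprived arrays and 1 shape per replicate number. Mitochondrial chaperones of deprived arrays 2 and 3 stand lowest; the groups overlap in every class.

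The measured genes of the class of other small heat shock proteins lay within 1 SE of 0. Hspb8, which works with Bag3 in clearing aggregates, was at 0.09 ± 0.17 (SE), and Hspb2, a muscle and heart family member, at 0.13 ± 0.16. Hspb11, a ciliary transport protein despite its name, lay below the filter.

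The other DnaJ genes held the lowest difference outside mitochondria. Dnajb5, a DnaJ protein of cytosol and nucleus, had signals of 450.4, 375, 503 and 618 in non-deprived and 173, 246, 506 and 462 in deprived arrays. Deprived arrays 1 and 2 lay below every non-deprived array and arrays 3 and 4 within them. The log2 difference was -0.57 ± 0.30 (SE), with limma adjusted p = 0.996, and 0.703 with the block. With arrays left out it ran from -0.79, without deprived replicate 3, to -0.30, without deprived replicate 1. Dnajc17, a nuclear protein with an RNA-binding domain, was at -0.37 ± 0.28, and Dnajc9, a histone chaperone, at -0.35 ± 0.20. Dnajc9 had 662, 719, 827.5 and 796 against 687, 478, 429 and 819.6, low in deprived arrays 2 and 3.

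Dnajc5, the cysteine string protein of synaptic vesicles, had 546, 682, 1141 and 881 in non-deprived and 834, 752, 1143 and 842 in deprived arrays. The groups overlapped, and the fold was 1.12 (0.806 to 1.57). The general Hsp70 partners Dnaja1 and Dnaja2 had folds of 0.948 (0.791 to 1.14) and 1.13 (0.874 to 1.47). Dnajb6, which restrains aggregation and whose promoter holds a heat shock element of 3 units, had 1.06 (0.880 to 1.27). Dnajb13, a protein of sperm tails, had the highest value of the class, at 0.27 ± 0.21. Of the 15 measured, 9 lay below 0 and 6 above, with a median of -0.08.

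Of 16 genes with more than 1 probe set, 9 had several that passed the filter. For 3 of these, Dnajb6, Dnajb9 and Dnajc2, and for the 4 of Hspa4, the probe sets had the same sign. For Cct3, Cct5, Dnajc3, Dnajc8 and Hspd1 they had different signs, with Cct5 at 0.04 and -0.28 and Dnajc8 at 0.03 and -0.22.

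Co-chaperones and other heat shock genes outside the families had 9 genes below 0 and 7 above among 16 measured of 24 listed. None of the 16 was a heat shock factor, the median was -0.03, and limma called 0. Agreement between probe sets was examined for the members only. Bag2, a co-chaperone, was counted below 0 by a probe set at -0.07 ± 0.13 (SE). Another probe set of Bag2 was at 0.65 ± 0.23 (limma adjusted p = 0.996). Stip1, which links Hsp70 to Hsp90, had mean signals of 861 ± 184 and 699 ± 55.0 (SD, n = 4, non-deprived first). Bag1, a nucleotide exchange factor of Hsp70, had 815 ± 114 and 703 ± 167 and was lower in 4 of 4 pairs. Cryab, a small heat shock protein known from the lens and glia, had 258.5 ± 55.5 and 309.7 ± 54.1. None of them passed (limma adjusted p = 0.996 for each).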

How the data were processed

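Total RNA of visual cortex was hybridised to 1-colour short-oligonucleotide arrays, 4 per hemisphere. The authors deposited signal intensity per probe set on a linear scale, and per the submitters' processing notes MAS5 made it. Its version is not given in the sources used here. Of 12488 probe sets, 66 controls were removed, and 10833 of the others had 1 gene symbol, 396 several and 1193 none. Of the first kind, 10817 were updated through Entrez identifiers to GRCm38.p6 names. Each array was scaled to the same 2% trimmed mean, the 10th percentile of the remaining signals (15.3) was added and log2 taken, and 7453 probe sets above the 40th percentile of the mean log2 value were kept. This scale understates differences of dim genes. The hemispheres were compared by limma (3.58.1, R 4.3.3; lmFit, then eBayes with trend), two-sided, with Benjamini-Hochberg adjustment over all kept probe sets. Probe sets with several symbols that match the rule (2) were left out. Members below the filter got a difference from a fit without it and no call. The number of arrays limits the precision.

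The members, classes and lists were chosen with earlier results of these data known, so no score over members was tested. Named genes were the heat-inducible genes, main constitutive, ER and mitochondrial chaperones, all Cct genes, Dnajc5, the 3 smallest p of each class and pathway list, and the 5 highest and 5 lowest members. Others were named after their values were seen. Same-numbered arrays deviated together from their group means, with correlations of 0.158 to 0.422 in the 4 pairs, all above the limit of 0.1. Non-deprived array 3 and deprived array 4, of different numbers, also passed it, at 0.123. The number was used as a block in a separate fit only. SEs, intervals and p-values are from the fit without it, which ignores pairing, unless the block is named. With the block the SE was 0.134 against 0.240 for Hspe1, and 0.202 against 0.199 for Dnajc1. Whether same-numbered arrays came from 1 mouse is not stated. Alternatives covered filter, pseudocount, scaling, block, array weights, control ratios as covariates, moderation without trend and each array left out. The fit was tested on simulated data. Plots used Python 3.11.15 and matplotlib 3.10.9.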

Additional observations from a re-analysis of the deposited data

Results flagged for a closer look

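In 5 of 84 groups of 4 arrays, 1 array lay far from the rest, where chance alone gives about 1 in 20, or 4.2. The gap to the nearest array, divided by the range of the 4 log2 values, was 0.935 for Hspe1 in non-deprived cortex, set by replicate 2, and 0.887 for Dnajc11 in non-deprived cortex, set by replicate 3. It was 0.865 for Hspa2 in non-deprived cortex, also set by replicate 3. In deprived cortex it was 0.862 for Cct3, set by replicate 3, and 0.853 for Dnajc3, set by replicate 4.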

How the results depend on the processing

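In each of 24 other fits limma called 0 probe sets and 0 chaperone members, the fits with the replicate block included (0 and 0). The smallest adjusted p of a member in any fit was 0.666. The median over all members ran from -0.05 to 0.04. Using the symbols as the platform annotation gives them returned the same 54 genes. With all arrays in the fit, class medians that moved by more than the SD between replicates were those of other DnaJ genes (-0.02 with no filter and 0.006 with the actin ratio, against -0.08) and ER genes (0.191 with the Gapdh ratio, against 0.01). Leaving arrays out moved these medians again, the constitutive median (-0.112 without non-deprived replicate 1, against -0.01) and the inducible minus constitutive gap. The mitochondrial median went from -0.224 to -0.04 with the actin ratio. That shift lay within the SD of both groups together, where deprived arrays alone had 0.394 and non-deprived arrays 0.0485. With arrays left out, including both arrays of a number, which was chosen after seeing the data, medians ran from -0.39 to -0.086 for mitochondrial, -0.092 to 0.123 for heat-inducible, -0.071 to 0.102 for TRiC and 0.032 to 0.178 for small heat shock genes, -0.112 to 0.002 for constitutive genes, -0.106 to 0.002 for other DnaJ genes and -0.069 to 0.144 for ER genes, and the inducible minus constitutive gap from -0.089 to 0.193. Of 42 named genes, 20 lay within 1 SE of 0 and changed sign in 80 of 998 recomputed values. Beyond that, the sign turned for Hspd1 (0.096) and Dnajb13 (-0.05) with the Gapdh ratio, for Dnajc10 (-0.058) with the actin ratio, and for P4hb when arrays were left out (-0.56 to 0.023). The cause was not tested.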
